A study of Mus musculus with 3 samples.

Results

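The 10 genes described here encode secreted proteins of the acute phase response. They are the serum amyloid A genes Saa1, Saa2, Saa3 and Saa4, the orosomucoid genes Orm1, Orm2 and Orm3, the lipocalin gene Lcn2, the pentraxin gene Apcs and the lipopolysaccharide-binding protein gene Lbp. They were taken from a fixed list of names, and all 10 were found among the 20546 genes named on the array, each through 1 probe. Expression was measured with single-colour Agilent arrays in 3 samples from female mice. The control, called the SiO2 spleen, is spleen after SiO2 (silica). The SiO2-3TF-3C spleen had in addition the treatment labelled 3TF-3C, an abbreviation the labels do not spell out. Both spleen samples were taken on day 82, and per their titles both had SiO2. Normal liver served as a positive control. Per the series design 5 samples were pooled in each group, although that text names cells and spleens and not liver. Neither strain and age nor the means of delivering 3TF-3C is stated in the labels.

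The acute phase response is the change in plasma proteins that follows infection or tissue injury. Interleukin 6 acts on hepatocytes through gp130, JAK kinases and STAT3, and interleukin 1 and tumour necrosis factor act through NF-kB, with C/EBP factors on the target promoters. Most of the resulting proteins, such as serum amyloid A and orosomucoid, are made by hepatocytes. Saa3 is made chiefly outside hepatocytes, by macrophages and fat cells among others. Lcn2 is stored in neutrophil granules, although inflamed hepatocytes make it as well. The members are accordingly described as 8 hepatocyte-made genes (Saa1, Saa2, Saa4, Orm1, Orm2, Orm3, Apcs and Lbp) and 2 leukocyte-made genes (Saa3 and Lcn2). This division rests on general knowledge and not on these arrays.

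The mouse Saa genes lie side by side on chromosome 7 in the order Saa3, Saa4, Saa1, Saa2, with no other protein-coding gene among them, and Orm1, Orm3 and Orm2 do so on chromosome 4. Promoter sequence from the RefSeq table (GRCm38.p6) was held for 8 of the 10 members, the exceptions being Orm1 and Lbp. The 250 bases before the annotated start are printed for Saa1 and Saa2, whose promoters are the most alike of the set and whose signals stood at the same share of the liver level. Those of Saa3 and Lcn2 follow, as the 2 leukocyte-made genes. Capitals mark matches to TTNNGNAA, a short form of the site bound by C/EBP factors, on either strand.
Saa1, chr7:46742981-46743230, minus strand: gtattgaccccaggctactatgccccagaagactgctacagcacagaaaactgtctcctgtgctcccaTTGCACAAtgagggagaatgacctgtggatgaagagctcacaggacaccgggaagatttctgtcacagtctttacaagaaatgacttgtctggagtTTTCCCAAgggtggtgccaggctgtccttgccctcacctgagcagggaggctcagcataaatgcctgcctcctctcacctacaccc
Saa2, chr7:46751583-46751832, plus strand: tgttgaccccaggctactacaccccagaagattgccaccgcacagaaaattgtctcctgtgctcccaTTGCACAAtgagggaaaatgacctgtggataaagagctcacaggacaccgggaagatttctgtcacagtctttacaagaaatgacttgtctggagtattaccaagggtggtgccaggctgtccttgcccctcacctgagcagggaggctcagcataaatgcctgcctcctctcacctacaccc
Saa3, chr7:46715677-46715926, minus strand: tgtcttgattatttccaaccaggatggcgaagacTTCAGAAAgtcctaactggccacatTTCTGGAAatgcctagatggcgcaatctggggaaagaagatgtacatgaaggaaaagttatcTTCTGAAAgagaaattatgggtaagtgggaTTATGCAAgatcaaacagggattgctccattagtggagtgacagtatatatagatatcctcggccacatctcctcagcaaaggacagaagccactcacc
Lcn2, chr2:32387740-32387989, minus strand: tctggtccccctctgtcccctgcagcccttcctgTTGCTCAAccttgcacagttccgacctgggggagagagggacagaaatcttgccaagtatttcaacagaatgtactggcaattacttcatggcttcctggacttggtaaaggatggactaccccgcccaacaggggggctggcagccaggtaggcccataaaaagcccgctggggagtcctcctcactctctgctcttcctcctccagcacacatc

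Aligned end to end, the windows of Saa1 and Saa2 were identical at 238 of 249 aligned bases (95.6%), and those of Orm2 and Orm3 at 218 of 245 (89.0%). The C/EBP letters occurred in 7 of the 8 windows, all but that of Apcs, and in 36.8% of the 32851 windows of this length in the table. Because Saa1 and Saa2, and Orm2 and Orm3, have nearly the same sequence, the 8 windows are not independent. Saa1 and Saa2 share a match that starts 182 and 183 bases before their start sites. Saa1 has another at 86 bases, where Saa2 has none. The letters TTCNNNGAA, a STAT site, were found in 1 of 8 windows, that of Apcs, against 7.02% of all windows. An NF-kB form (GGG, any 3 bases, TTCC) was found in 0 of 8, against 4.65%, and TATAAA in the windows of Orm2 and Orm3, against 12.4%. No 2 kinds of match overlapped in these windows. A match describes letters only and says nothing about binding in these tissues.

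Each group has 1 array, so the comparisons carry no test, p-value or standard error, and their precision is limited by the small number of arrays. Differences are described by a rule of size, at least 2-fold. Levels are log2 signals set to 0 at the 75th percentile of the array. A value after ± is the technical error of a log2 difference, combined from the scanner software's error of both signals, and leaves out the spread between animals. Levels of different genes are not compared, because probes differ in brightness. Summed signals of a list, where given, are set mostly by its brightest probes and do not describe its typical gene. Of the 20546 named genes 16085 were well above background on all 3 arrays by the software's own flag. All 10 members were among them, so no difference of a member below rests on a bound. In the SiO2 spleen, however, the dimmest of them were close to the limit. Saa2 had an intensity of 10.4, Orm3 of 10.6 and Lbp of 12.5, where the lowest signal well above background was 8.63 and the median negative control 1.94. Saa1 and Saa2, and the 3 Orm genes, are close relatives whose messages may cross-hybridise, and the probe sequences were not used here, so each family's members cannot be told apart with certainty.

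The hepatocyte markers Alb, Ttr, Apoa1, Apob, Hnf4a, Cps1, Cyp2e1, Cyp3a11, Pck1, Serpina1c, Fgb and Ahsg were all well above background in liver and in the SiO2-3TF-3C spleen (12 of 12 on each array), and 9 of 12 were in the SiO2 spleen. Of all spots other than controls, 79.9% were well above background in the SiO2 spleen, 81.3% in the SiO2-3TF-3C spleen and 77.2% in liver. The count for the SiO2 spleen is therefore near the share of all spots. The liver array also gave signal for spleen and blood cell markers. All 8 B cell and all 9 T cell markers were well above background there, beside 77.2% of all spots. Their median log2 differences from the SiO2 spleen were -1.23 and -1.52. Their part in the results was not tested. The RNA came from whole tissue, in which more cells of a type and more RNA per cell cannot be told apart.

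The first comparison asks how the SiO2-3TF-3C spleen differed from the SiO2 spleen. Acute phase genes were higher in it: 9 of 10 members were at least 2-fold higher, 0 were lower and Apcs was just under the threshold. Over all genes measured, 5.24% were at least 2-fold higher and 1.39% at least 2-fold lower. The median log2 difference was 3.49 over the 8 hepatocyte-made members (range 0.91 to 7.07) and 1.15 over the 2 leukocyte-made ones (1.04 and 1.27), beside -0.15 over all genes. The rise was not particular to acute phase genes. All 12 hepatocyte markers were at least 2-fold higher too, with a larger median of 8.26, where 3 of the 12 values are bounds.

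**Figure D1:**
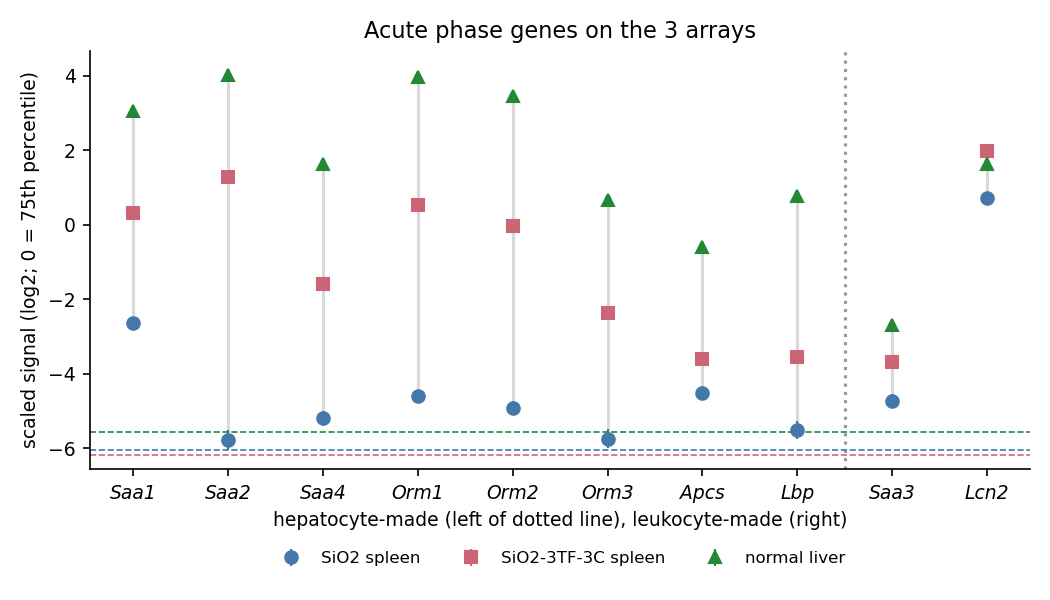
Log2 signal of the 10 members on each of the 3 arrays (circles SiO2 spleen, squares SiO2-3TF-3C spleen, triangles normal liver), on an axis where 0 is the array's 75th percentile. Error bars are the technical signal error and mostly lie within the symbols, and the dashed lines are the lowest signal well above background on the array of the same colour. All 8 hepatocyte-made genes are lowest in the SiO2 spleen and highest in liver, while Lcn2 is highest in the SiO2-3TF-3C spleen.

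Serum amyloid A proteins travel on high-density lipoprotein, and Saa1 and Saa2 are the strongly inducible members in mouse liver. The level of Saa2 was -5.78 in the SiO2 spleen, 1.29 in the SiO2-3TF-3C spleen and 4.02 in liver. Saa1 stood at -2.63, 0.32 and 3.05 in the same order. Both probes were thus lowest in the SiO2 spleen and highest in liver, with the SiO2-3TF-3C spleen between. Saa2 differed between the spleens by 7.07 ± 0.34 on the log2 scale (134.5-fold), the largest difference among the members, and Saa1 by 2.95 ± 0.21 (7.74-fold). Against liver the same genes differed by nearly the same amount, with -2.73 ± 0.20 for Saa2 and -2.73 ± 0.20 for Saa1.

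Saa4 encodes the constitutive serum amyloid A, which changes little in inflammation. Its level was -5.20 in the SiO2 spleen, -1.60 in the SiO2-3TF-3C spleen and 1.62 in liver. It followed the order of the inducible genes, with a difference of 3.60 ± 0.26 (12.1-fold) between the spleens and of 6.82 ± 0.26 between liver and the SiO2 spleen. Saa3, the member made by macrophages and fat cells, behaved differently in size but not in order. It stood at -4.72, -3.68 and -2.70, a difference of 1.04 ± 0.25 between the spleens (2.06-fold) and of 2.02 ± 0.25 (4.06-fold) from the SiO2 spleen to liver. The technical error of the first value spans the 2-fold threshold.

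Orosomucoid, or alpha-1-acid glycoprotein, is an abundant plasma glycoprotein that binds drugs and dampens inflammation. The level of Orm1 was -4.61 in the SiO2 spleen, 0.53 in the SiO2-3TF-3C spleen and 3.95 in liver. Orm2 stood at -4.92, -0.02 and 3.46, and Orm3 at -5.75, -2.37 and 0.67. All 3 genes had the same order of arrays. The SiO2-3TF-3C spleen exceeded the SiO2 spleen by 5.14 ± 0.23 for Orm1 (35.2-fold), 4.90 ± 0.25 for Orm2 (29.8-fold) and 3.38 ± 0.32 for Orm3 (10.4-fold).

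Apcs encodes serum amyloid P component, the main acute phase pentraxin of the mouse, and Lbp carries bacterial lipopolysaccharide to CD14. Apcs had levels of -4.52, -3.61 and -0.60 in the same order of arrays. It is the only member below the threshold between the spleens, at 0.91 ± 0.25 (1.88-fold), while liver exceeded the SiO2 spleen by 3.93 ± 0.24 (15.2-fold). Lbp stood at -5.51, -3.56 and 0.77, so that the SiO2-3TF-3C spleen exceeded the SiO2 spleen by 1.95 ± 0.30 (3.88-fold). Of the hepatocyte-made members these had the smallest differences between the spleens.

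Lcn2, or lipocalin 2, captures iron-laden bacterial siderophores. It is the member with the closest levels on the 3 arrays, 0.72 in the SiO2 spleen, 1.98 in the SiO2-3TF-3C spleen and 1.64 in liver, and it was the only one with its highest level outside liver. The SiO2-3TF-3C spleen exceeded the SiO2 spleen by 1.27 ± 0.20 (2.41-fold) and liver by 0.35 ± 0.20 (1.27-fold), the latter within the 2-fold rule. Liver exceeded the SiO2 spleen by 0.92 ± 0.20 (1.89-fold). Its signals were far from background on every array, at 481.0, 1308 and 653 times the median negative control.

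The normexp background correction added an offset of 50 to each intensity, which draws the differences of dim signals toward 0. With it 7 of 10 members were at least 2-fold higher between the spleens. In that setting 3.37% of all genes were higher and 0.228% lower. The calls of Saa3 (0.48) and Lbp (0.66) ended. The other values were 4.39 for Saa2, 3.45 for Orm1, 3.11 for Orm2, 2.40 for Saa1, 1.86 for Saa4, 1.37 for Orm3 and 0.37 for Apcs, and 1.23 for Lcn2.

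Liver stood further from the SiO2 spleen for every member but Lcn2. Of the 10, 9 were at least 2-fold higher in liver and 0 lower, where 15.4% of all genes were higher and 17.0% lower. All 8 hepatocyte-made genes were among them, with a median of 6.62 and a range from 3.93 for Apcs to 9.80 ± 0.34 for Saa2 (893-fold). Orm1 differed by 8.56 ± 0.23, Orm2 by 8.38 ± 0.25, Orm3 by 6.42 ± 0.32, Lbp by 6.28 ± 0.29 and Saa1 by 5.68 ± 0.21. Lcn2 was the member within 2-fold. This comparison shares the SiO2 spleen array with the first, so a low signal there enlarges both differences. With normexp these values were 7.02 for Saa2, 6.76 for Orm1, 6.44 for Orm2, 5.01 for Saa1, 3.83 for Lbp, 3.78 for Orm3 and 1.09 for Saa3. The same number of members, 9, passed 2-fold, where 12% of all genes were higher and 9.73% lower.

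**Figure D2:**
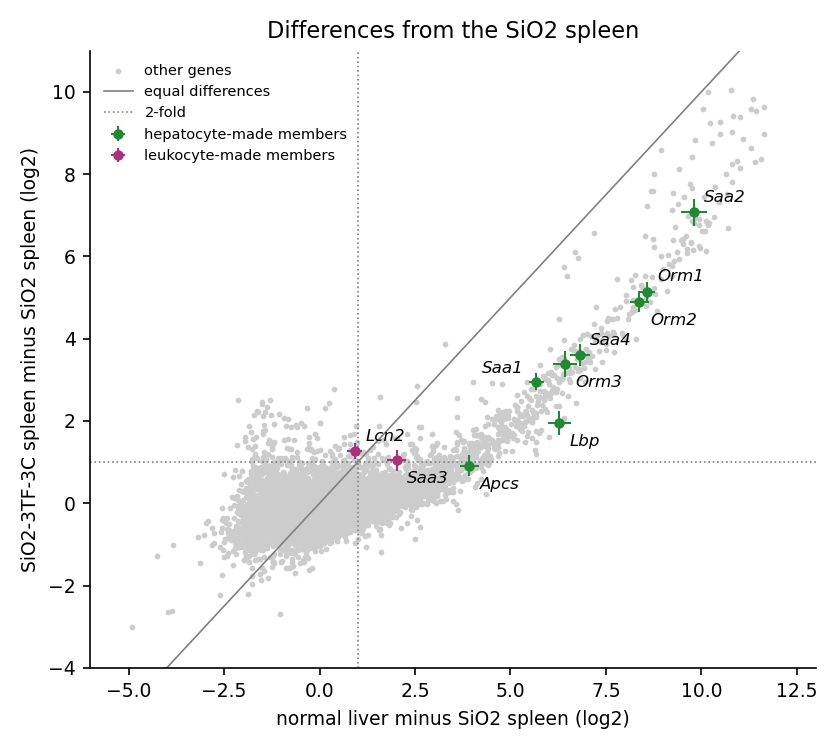
Each point is a gene well above background on all 3 arrays (predicted genes, clones, pseudogenes and mitochondrial genes are left out), with its log2 difference from the SiO2 spleen in normal liver (horizontal) and in the SiO2-3TF-3C spleen (vertical); both axes share the SiO2 spleen array, and bars on the members are technical errors. The hepatocyte-made members lie far right of the line of equal differences, from Apcs at 3.93 and 0.91 to Saa2 at 9.80 and 7.07, while Lcn2 lies just above that line.

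The third comparison, the SiO2-3TF-3C spleen against normal liver, does not use the SiO2 spleen array. Of the 10 members 8 were at least 2-fold lower than in liver and 0 higher, where 15.9% of all genes were lower and 10.7% higher. These 8 are the hepatocyte-made genes, all of them, with a median log2 difference of -3.13 (8.77-fold). They lay in a range from -4.33 ± 0.21 for Lbp to -2.73 for Saa1 and Saa2. Between these stood Orm2 at -3.48, Orm1 at -3.42, Saa4 at -3.22, Orm3 at -3.04 and Apcs at -3.01. The 2 leukocyte-made genes were within 2-fold, Saa3 at -0.98 ± 0.22 and Lcn2 at 0.35 ± 0.20. Saa3 lies at the threshold within its error. With normexp all 8 hepatocyte-made genes were still at least 2-fold lower, beside 11.1% of all genes. The ends of the range changed, with Orm2 at -3.32, Orm1 at -3.31 and Lbp at -3.17 at the low end and Apcs at -1.89 at the other.

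Expressed as a share of the liver signal after scaling, the 8 hepatocyte-made members in the SiO2-3TF-3C spleen covered a range from 4.98% for Lbp to 15.1% for Saa1, with a median of 11.4%. With normexp the range was 9.98% to 27.0%, with Orm2 lowest and Apcs highest. Saa2 stood at 15.1% too, Apcs at 12.4%, Orm3 at 12.1%, Saa4 at 10.7%, Orm1 at 9.31% and Orm2 at 8.95%. Saa3 reached 50.7% and Lcn2 127%. In the SiO2 spleen the shares were 0.112% for Saa2, 0.264% for Orm1, 0.30% for Orm2, 0.886% for Saa4, 1.16% for Orm3, 1.28% for Lbp, 1.95% for Saa1 and 6.58% for Apcs. The leukocyte-made genes were already at 24.6% (Saa3) and 52.9% (Lcn2) of liver there. As a part of the gap between the SiO2 spleen and liver, the hepatocyte-made members covered 3.74% to 15.0% in the SiO2-3TF-3C spleen, Saa3 34.5% and Lcn2 158%.

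Hepatocyte markers gave a higher median than the hepatocyte-made members. The 12 hepatocyte markers in the SiO2-3TF-3C spleen stood at a median of 19.0% of their liver signal, from 5.54% for Apob to 87.9% for Alb. With normexp the medians were 14.8% for the members and 21.3% for the markers. Over the 4 hepatocyte-made members and 7 markers that the authors' deposited table lists, those medians were 14.8% and 16.9%. The 2 groups overlap, and no test of the difference can be made on single arrays. The markers are also not separate from the acute phase response. Of them 4 are counted among the negative acute phase genes below, Alb included, and Fgb among the other positive ones.

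**Figure D3:**
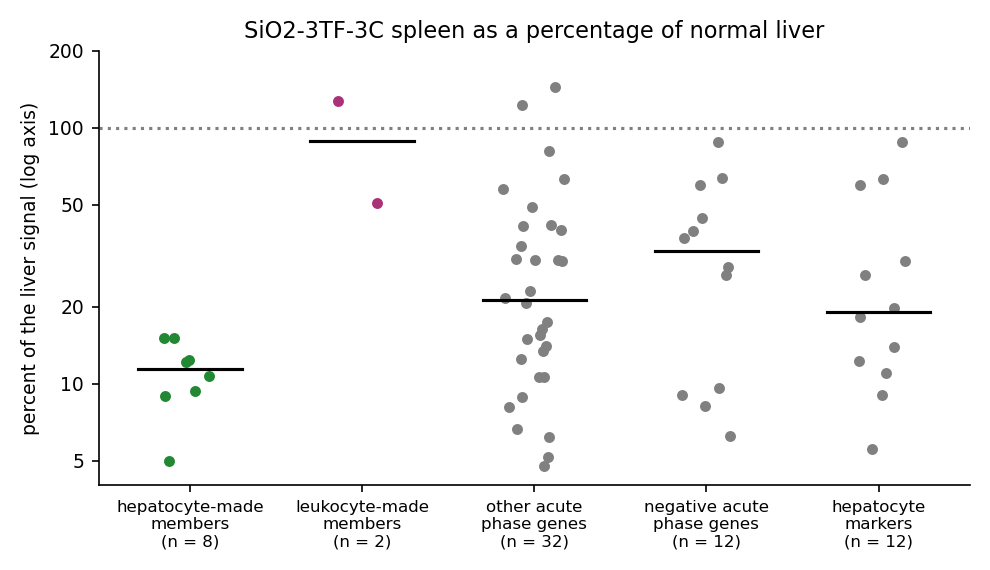
Signal in the SiO2-3TF-3C spleen as a percentage of normal liver (log axis, dotted line at 100%), 1 point per gene well above background on both arrays, with the median as a bar. The hepatocyte-made members lie between 4.98% and 15.1%, and the medians are 21.1% for the other acute phase genes, 32.9% for the negative acute phase genes and 19.0% for the hepatocyte markers. Some hepatocyte markers are also counted in the lists of other and negative acute phase genes.

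The other positive acute phase genes went the same way as the members. Of 33 measured, 26 were at least 2-fold above the SiO2 spleen in the SiO2-3TF-3C spleen and 0 below, with a median of 3.51. Over all genes these shares were 5.24% and 1.39%. Normexp gave a median of 2.60 with a count of 23, where 3.37% of all genes were higher. Over the genes well above background on all 3 arrays 19 of 25 were higher, and 17 of the 24 listed in the authors' deposited table. Those with the largest values were the fibrinogen chains Fgg (at least 1652-fold) and Fgb (9.57 ± 0.25) and the protease inhibitor Serpina3k (at least 1114-fold). C-reactive protein, Crp, a minor acute phase protein in mice, was at least 30.1-fold higher, the iron hormone gene Hamp at least 285-fold, and haptoglobin, Hp, differed by 2.53 ± 0.20. At the other end stood the pentraxin Ptx3, which is made outside hepatocytes, at -0.80 ± 0.26, the interleukin 1 receptor antagonist Il1rn at -0.02 and complement C4b at 0.15. Against liver 27 of 32 were at least 2-fold lower, beside 15.9% of all genes, with a median of -2.24.

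Negative acute phase genes, whose plasma proteins drop during inflammation, were not lower. All 12 were at least 2-fold above the SiO2 spleen in the SiO2-3TF-3C spleen, beside 5.24% of all genes, with a median of 7.61. Among them were the retinol carrier Rbp4 (at least 1465-fold), Ttr (at least 1187-fold), Ahsg at 10.04 ± 0.22 and Alb, 1021-fold higher with an error of 0.22 on the log2 scale. The smallest values were those of transferrin, Trf, at 1.05, Apoa2 at 4.47 and Apom at 5.20. Relative to liver 9 of 12 were at least 2-fold lower, beside 15.9% of all genes, with a median of -1.62. The 12 stood at a median of 32.9% of the liver signal. This list shares 4 genes with the hepatocyte markers.

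The cytokines listed as inducers of acute phase genes were mostly within 2-fold between the spleens. Of 15, 0 were at least 2-fold higher and 1 was lower, interleukin 22 (Il22) at -1.13 ± 0.23. Over all genes these shares were 5.24% and 1.39%. The median of the list, 0.03, changed sign with the processing (-0.02 to 0.06). Its summed signals were 10.7, 6.83 and 6.05 times the 75th percentile (SiO2 spleen, then SiO2-3TF-3C spleen, then liver). The mean log2 level of the list changed little, at -2.61, -2.70 and -2.67 in that order. Il6 was at -0.28 ± 0.26, Il1b at -0.91 ± 0.20, Tnf at -0.13 and Il11 at -0.44. The technical error of Il1b spans the 2-fold threshold. The highest were Ctf1 at 0.91, Il10 at 0.41 and Cntf at 0.36. Il6 was dim on all 3 arrays, with levels of -4.36, -4.64 and -3.45.

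Cytokine receptors had 1 of 16 at least 2-fold higher and 0 lower (median -0.16), beside 5.24% and 1.39% of all genes. That member was Il1rap, the accessory chain of the interleukin 1 receptor, at 3.36 ± 0.24, and liver exceeded the SiO2 spleen for it by 6.38. The interleukin 6 receptor chains Il6ra and Il6st stood at -0.34 and 0.07 and the oncostatin M receptor Osmr at 0.02. Of 29 measured signalling genes and transcription factors 3 were at least 2-fold higher, among them the liver-enriched factors Hnf4a at 8.37 ± 0.35 and Foxa2 at least 17.4-fold. The acute phase regulators Stat3 (-0.13), Cebpb (-0.27), Cebpd (0.02) and Nfkbiz (-0.08) were within 2-fold, and so was Socs3 (0.06), a target and brake of STAT3. The lowest were the kinases Jak2 at -0.61 and Jak1 at -0.38.

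Among 19 measured partners and receptors of the member proteins, 3 were at least 2-fold higher after 3TF-3C and 0 lower. Over all genes these shares were 5.24% and 1.39%. The median of the list was 0.12. The 3 are hepatocyte genes, Apoa1 (at least 253-fold), a protein of the lipoprotein that carries serum amyloid A, and the asialoglycoprotein receptor chains Asgr1 at 5.43 and Asgr2 at 3.91. The lipopolysaccharide receptor genes Cd14, Tlr4 and Ly96, which act after Lbp, stood at 0.18, -0.25 and 0.12. Fpr2, a receptor for serum amyloid A, was at 0.58 ± 0.20, and the lipocalin 2 receptor Slc22a17 at -0.35. Mmp9, a protease that binds lipocalin 2, was at 0.55.

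**Figure D4:**
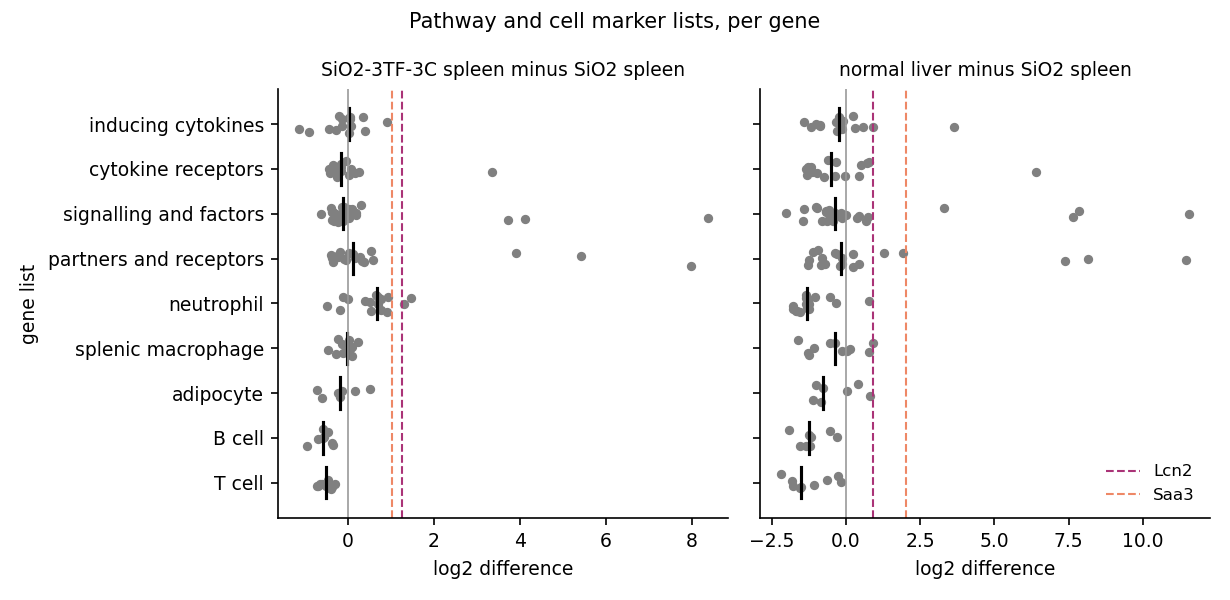
Log2 difference from the SiO2 spleen in the SiO2-3TF-3C spleen (left) and normal liver (right; the horizontal scales differ), 1 point per gene of each list with the median as a bar and the values of Lcn2 and Saa3 as dashed lines. Neutrophil genes have medians of 0.67 on the left and -1.31 on the right, and of these genes Ltf and Ctsg lie beyond Lcn2 on the left.

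Genes of the cells that make Lcn2 and Saa3 were set beside them. Of 16 neutrophil genes 2 were at least 2-fold above the SiO2 spleen in the SiO2-3TF-3C spleen and 0 below, with a median of 0.67. Over all genes these shares were 5.24% and 1.39%. Those past 2-fold were the granule proteins Ltf at 1.47 ± 0.20, which shares its granule with lipocalin 2, and Ctsg at 1.31 ± 0.20. Ngp was at 0.78, Cd177 at 0.94, S100a8 at 0.01, S100a9 at -0.11, Lyz2 at -0.19 and Cxcr2 at -0.48. All 16 were well above background on each array, as were 79.9%, 81.3% and 77.2% of all spots (SiO2 spleen, then SiO2-3TF-3C spleen, then liver). The summed signals of the 16 were 156, 191 and 81.8 times the 75th percentile in that order. In liver 13 of 16 were at least 2-fold lower than in the SiO2 spleen and 0 higher, beside 17.0% and 15.4% of all genes. The neutrophil median was -1.31, while Lcn2 differed by 0.92 in the opposite direction. Only Prtn3, at 0.78, was also above 0 there.

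Splenic macrophage genes had 0 of 11 at least 2-fold apart between the spleens and a median of -0.02 that changed sign with the processing (up to 0.10). Their summed signals were 150, 144 and 115 times the 75th percentile in the same order. All 11 were well above background on each array, beside 77.2% to 81.3% of all spots. Adipocyte genes had 0 of 7 apart and a median of -0.17 (-0.22 to 0.08), with summed signals of 7.45, 4.89 and 4.17. The fat cell hormone gene Adipoq stood at -0.13 ± 0.28. Saa3, at 1.04, lay above every gene of both lists. Among Kupffer cell genes, the macrophages of the liver, 2 of 9 were higher, Clec4f at 6.41 ± 0.34 and Vsig4 at 4.11 ± 0.23. Over all genes 5.24% were at least 2-fold higher between the spleens and 1.39% lower. Fibroblast genes had 0 of 9 apart (median -0.19) and monocyte and dendritic cell genes 1 of 10 lower (median of the list -0.46). Red cell precursor genes moved with the groups: 8 of 10 were at least 2-fold higher after 3TF-3C (median 1.94), and their summed signals were 21.8, 50.9 and 9.69 times the 75th percentile. Those of B cells were 137, 94.2 and 55.7, and of T cells 38.4, 26.0 and 17.2. The part of these cells in the results was not tested.

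The genes with the most similar pattern were sought by distance in the plane of the 2 log2 differences from the SiO2 spleen. Of the 16085 genes well above background on all 3 arrays 15219 were searched, without the member itself and without symbols of predicted genes, clones, pseudogenes and mitochondrial genes. With 3 arrays many genes share a pattern, so this is a description only. The nearest to Saa2 were Fgl1, Cth and Cyp2e1 (distance 0.14 to 0.21), and to Saa1 Gpt2, Depp1 and Cyp7a1 (0.11 to 0.21). Serpina10, Igfbp2 and Inmt were nearest to Saa4 (0.11 to 0.15). For the orosomucoids these were Apom, Elovl2 and Dio1 for Orm1 (0.06 to 0.15), Cyp2b10, Dio1 and Cyp3a44 for Orm2 (0.17 to 0.19) and Prlr, Il1rap and Nat8f2 for Orm3 (0.03 to 0.06). Lbp had G6pc, Pax2 and Serpina11 as neighbours (0.11 to 0.40), and Apcs had Odf3b, Arhgef16 and Ptprf (0.07 to 0.08). Neighbours of Saa3 were St3gal5, Chac2 and Fahd1 (0.03 to 0.22), and of Lcn2 Ssx2ip, Mblac2 and Dhrs11 (0.05 to 0.12). No member was among the nearest 3 genes of another.

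The authors' deposited table lists 5 of the 10 members, with log2 values of its own normalization. In the authors' deposited table Saa2 stood at 3.19, 10.28 and 12.71 in the order used above, Saa1 at 6.31, 9.26 and 11.79, and Orm3 at 3.22, 6.55 and 9.56. In the same authors' deposited table Lbp was at 3.45, 5.41 and 9.65 and Lcn2 at 9.63, 11.01 and 10.49. The order of the arrays was that of the scanner files for each of them, Lcn2 included. Its difference from liver was 0.52 in the authors' deposited table.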

How the data were processed

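The authors deposited 1 Agilent Feature Extraction file per array, with linear Cy3 fluorescence intensity after background subtraction and detrending, not scaled between arrays. Per the file headers the software was version 11.0.1.1, the array design 026655 and the build mm9, but version 9.1 of Agilent Feature Extraction per the submitters' processing notes. The flags for saturation, uniformity and background are other values of the same files, deposited by the authors. Per the file headers the 3 arrays share 1 slide and scan. Per the labels' protocols RNA was isolated with a kit for blood and depleted of globin messages. The authors' deposited series table holds log2 values with equal maxima (16.58) and medians of 5.91; how they were made is not stated in the labels.

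Control spots and flagged spots (182, 283 and 469 of 43020) were left out, log2 signals of a probe averaged, and the array's 75th percentile (intensities of 569, 515 and 390) subtracted. No spot was saturated. Probes were named through RefSeq accessions (GRCm38.p6), which gave 27038 of 39112 probes (69.1%) a symbol, and a gene's brightest probe was used. A gene well above background on 1 side only has a bound, set by the lowest signal well above background. Promoters were searched in the RefSeq windows.

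The members and lists were chosen with earlier results of these data known. From each list up to 3 genes at each end and fixed anchors were named. Prtn3 and Apob were named after their values were seen, and 1 gene that the rule names is not reported here. Unmatched were Serpina1b, Lrg1, Cd68, Csf3r, Ly6g, Ly6c2 and Polr2a. Alternatives used limma 3.58.1 in R 4.3.3 and Python 3.11.15; the normexp setting used spot medians in place of the planned means.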

Additional observations from a re-analysis of the deposited data

How the results depend on the processing

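The alternatives were normexp background correction, quantile normalization, centring on the median of an array or on 16 housekeeping genes, averaging a gene's probes, keeping only genes detected on all 3 arrays, dropping the filter on dim probes, and the values of the authors' deposited table. All 30 differences of the members (10 genes in 3 comparisons) kept their sign under each alternative that holds the gene, and 0 reversed. The counts past 2-fold differed by over 1.5 times only with the authors' deposited values, which list 5 members: relative to the SiO2 spleen 5 were higher after 3TF-3C and 4 in liver, and 4 were below liver after 3TF-3C, because fewer genes are listed. Over all genes in the authors' deposited table these shares were 5.37%, 14% and 13.5%. Of 225 values of single members under an alternative, 199 stayed within the technical error of the main value and 26 moved further, 23 of them with normexp. Averaging probes, keeping only genes detected on all 3 arrays and dropping the dim filter could not change a member's value. Each member has 1 probe and was well above background on all 3 arrays. Values under these settings are nevertheless counted among the 199 and among the kept signs. The median over all genes between the spleens ranged from -0.16 to -0.05, and that of liver against the SiO2 spleen from -0.22 to 0.07. Slide and scan could not be used as a block because the 3 arrays share them. No paired analysis was possible because each group has 1 array, and no replicate could be left out. Signal near background in the SiO2 spleen limits the size of the differences, most plainly of Saa2, Orm3 and Lbp. Other members depend on the processing too. Between the spleens normexp lowered Orm1 from 5.14 to 3.45, Orm2 from 4.90 to 3.11, Saa4 from 3.60 to 1.86 and Saa3 from 1.04 to 0.48.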
